A study of Mus musculus with 18 samples.

Results

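Opa1 was knocked down by itself during direct cardiac reprogramming, and the transcriptome was compared with that of cells given a non-targeting hairpin. The comparison holds 6 of the 18 samples of the series, chosen by the hairpin named in their titles: 3 shOpa1 libraries and 3 shNT libraries. Of 23420 genes in the count table, 14162 passed the filter on low counts and were tested.

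All 6 libraries came from primary cardiac fibroblasts of neonatal mice of the outbred CD1 strain. Every culture, control included, was infected with a retrovirus in which 1 transcript encodes Mef2c, Gata4 and Tbx5, transcription factors that drive fibroblasts towards a cardiomyocyte-like state. In the shOpa1 group a short hairpin RNA against Opa1 was added, and in the shNT group a hairpin without a target. Titles give day 7, 8 and 9 for replicates 1, 2 and 3 of each group, but do not say whether these are days of harvest, so the spread within a group may also hold a spread between days. In the genotype field replicate 1 reads shOpa1, replicate 2 shOpa2 and replicate 3 shOpa3, with no key to the numbers, so the group may hold 1 hairpin or several. Replicates are labelled biological, but separate animals or cultures are not named, so p-values measure the spread between these libraries. No sorting is named, so each library may be a mixture of converted and unconverted cells. The same fit also held 3 shMtfr1l and 3 double knockdown (shMtfr1l with shOpa1) libraries with the same day numbers and virus, which served to estimate the spread and, at the end, to look at Opa1 knockdown on a second background.

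Opa1 is a dynamin-like GTPase of the inner mitochondrial membrane. It fuses inner membranes after mitofusins have joined the outer ones, and it keeps cristae closed. The proteases Oma1 and Yme1l1 cut it, and in cells under mitochondrial stress the Oma1 cut stops fusion. In heart muscle, loss of mitochondrial function is known to act on the nucleus through the integrated stress response, in which translation of the transcription factor Atf4 raises genes of amino acid synthesis, amino acid uptake and tRNA charging.

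Libraries held 20194675, 21164487 and 20769664 gene counts in shOpa1 and 16205862, 23527030 and 21480191 in shNT. Levels below are CPM, the counts of a gene scaled to a common library size after TMM scaling, and a gene is called where the adjusted p of edgeR's quasi-likelihood test is under 0.05. On the first principal component of the 6 libraries, which held 41.1% of the variance, the groups did not overlap. Defining fibroblast markers were present throughout, with a summed level of 62414 to 64797 CPM in shOpa1 and 59099 to 64838 CPM in shNT. Macrophage and leukocyte markers summed to 371.6 to 1037 CPM in shOpa1 and 398.9 to 636.5 CPM in shNT. Of 14 myogenic and skeletal muscle factors, 7 had no count in any of the 6 libraries, and the others summed to at most 6.49 CPM in shOpa1 and 4.11 CPM in shNT. Myod1 and Myog, which define skeletal myoblasts, did not pass the filter. The share of converted cells was not measured.

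Opa1 itself (chromosome 16, 29579334 to 29654602, plus strand of mm10) stood at 7.43, 6.85 and 12.6 CPM in the shOpa1 libraries, against 57.0, 72.6 and 59.7 CPM in the shNT libraries. All 3 shOpa1 libraries lay far below the lowest shNT library. The level was 8.96 ± 3.16 CPM in shOpa1 and 63.1 ± 8.33 CPM in shNT (SD, n = 3 each; the same holds for every mean below), a 7.04-fold fall (log2 fold change -2.82 ± 0.19, SE; adjusted p = 7.52e-08). Opa3, looked at because of the genotype field, was not called (52.5 ± 2.50 CPM in shOpa1 and 46.7 ± 2.81 CPM in shNT; adjusted p = 0.181). Mtfr1l, the target of the other hairpin of the series, was not called either (69.6 ± 3.34 CPM in shOpa1 and 71.9 ± 4.17 CPM in shNT; adjusted p = 0.787).

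Of the genes tested, 2025 were higher (14.3%) and 2139 lower (15.1%) in shOpa1, together 29.4%. Counts for the gene lists below are to be read beside these shares. Most changes were small. The median fold of a called gene was 1.36, and 67.4% of called genes changed by less than 1.5-fold. A change over 2-fold was called for 158 higher (1.12%) and 321 lower (2.27%) genes. Groups did not overlap for 3957 of the 4164 called genes, against 40.5% of all genes tested. The median log2 fold change over all genes was 0.0098.

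Among the largest rises was Xirp2, an actin-binding protein of the Xin family at muscle attachment structures, with 18.6, 16.6 and 23.0 CPM in the shOpa1 libraries, against 1.71, 0.861 and 1.13 CPM in the shNT libraries. Each shOpa1 library held many times the counts of any shNT library. The rise was 16.1-fold (log2 fold change 4.005 ± 0.23, SE; adjusted p = 1.67e-16). Hephl1, a copper-dependent ferroxidase, had 17.6, 13.6 and 16.8 CPM in the shOpa1 libraries, against 1.04, 0.646 and 1.42 CPM in the shNT libraries, a 15.5-fold rise with no overlap (adjusted p = 5.55e-14). Ptx3, a long pentraxin secreted in inflammation and wound repair, had 65.9, 68.4 and 67.6 CPM in the shOpa1 libraries, against 15.3, 15.1 and 17.5 CPM in the shNT libraries. Its libraries were nearly level within each group and far apart between groups, a 4.21-fold rise (log2 fold change 2.08 ± 0.11, SE; adjusted p = 9.71e-18). Further large rises at lower levels were those of the solute carrier Slc35f1 (log2 fold change 4.61), the xenobiotic-metabolising enzyme Cyp1a1 (4.34), the plasminogen-binding tetranectin gene Clec3b (2.90), the cornified envelope genes Sprr3 (2.86) and Sprr1a (2.18), the kinase gene Bmx (2.55), the cytokine gene Tnfsf18 (2.50), the stem cell antigen gene Ly6a (2.49), the guidance cue Sema3a (2.09) and the cytokine gene Il16 (2.06). Slc35f1 and Cyp1a1 had at most 0.244 CPM in any shNT library, so their folds rest on few control counts.

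Next to Opa1, the largest falls held several genes of the heart and of excitable cells. Hcn4, the pacemaker channel of the sinus node, had 1.29, 1.47 and 0.763 CPM in the shOpa1 libraries, against 6.17, 7.92 and 7.70 CPM in the shNT libraries. Every shOpa1 library was well below every shNT library, a 6.17-fold fall (log2 fold change -2.62 ± 0.35, SE; adjusted p = 1.86e-07). Tnni1, the slow skeletal troponin I of embryonic heart, had 2.03, 2.19 and 1.05 CPM in the shOpa1 libraries, against 7.88, 10.9 and 12.999 CPM in the shNT libraries, and fell 6.04-fold (adjusted p = 6.54e-10). Rbm24, a muscle splicing regulator, had 2.48, 2.33 and 2.24 CPM in the shOpa1 libraries, against 11.3, 8.66 and 10.5 CPM in the shNT libraries, and fell 4.31-fold (adjusted p = 7.90e-11). The zinc transporter gene Slc30a2 (log2 fold change -2.66), the melanocortin receptor accessory gene Mrap2 (-2.60), the desmosomal p53 target Perp (-2.22), the secretory granule gene Ptprn (-2.14), the calcium buffer Pvalb (-2.10), the glutamine transporter gene Slc38a5 (-2.02), the clathrin assembly gene Snap91 (-1.94) and the acute phase gene Saa3 (-2.13) also fell.

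**Figure D1:**
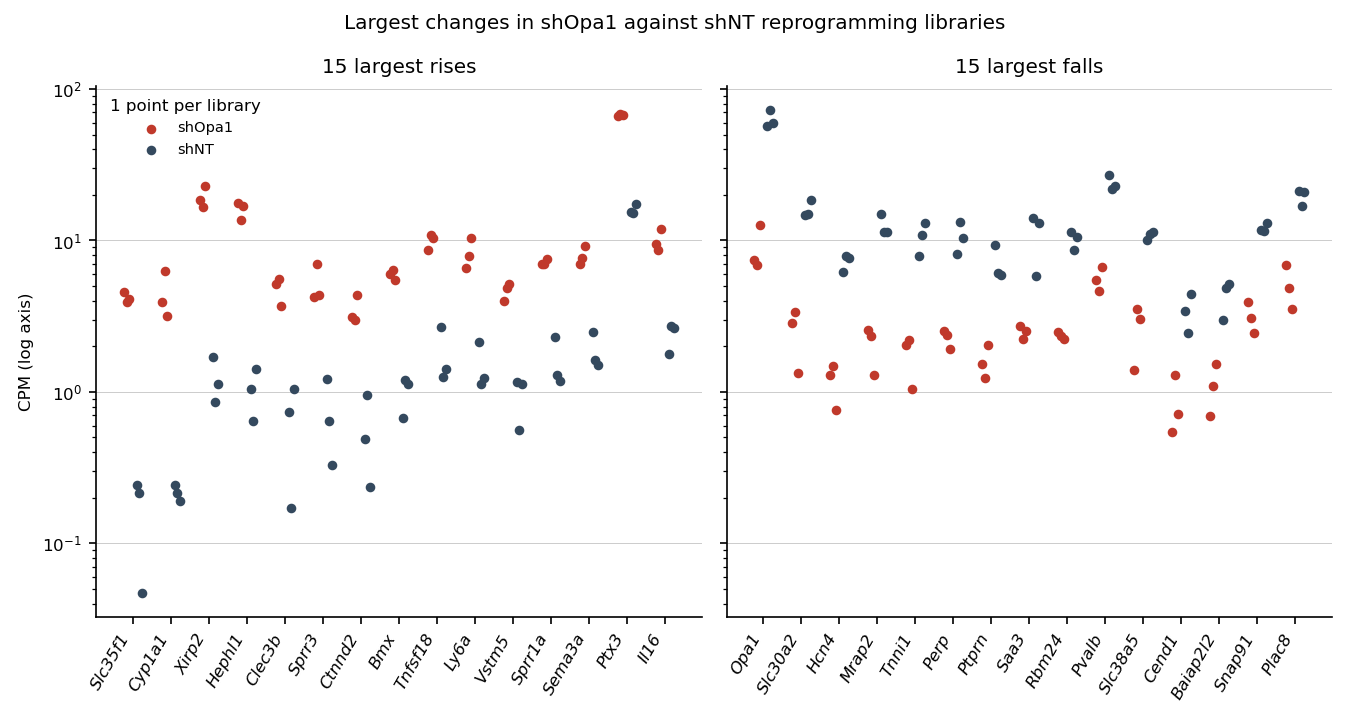
Level of the 15 genes with the largest rises (left) and the 15 with the largest falls (right), in CPM on a log axis, with 1 point per library and shOpa1 left of shNT for each gene. These genes were chosen for groups that do not overlap, so the gap between the colours is part of the choice; Opa1 leads the falls at 6.85 to 12.6 CPM in shOpa1 against 57.0 to 72.6 CPM in shNT.

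More contractile genes of heart muscle were lower than higher. Of 17 myosin and thick filament genes tested, 8 were lower, 2 higher and 7 not called, with a median log2 fold change of -0.75. Their summed level was 1035 to 1198 CPM in shOpa1 and 1909 to 2047 CPM in shNT. In bulk libraries fewer converted cells and less of these RNAs per converted cell cannot be told apart. Myl7, the atrial regulatory light chain, had 164, 179 and 134 CPM in the shOpa1 libraries, against 380.4, 378 and 403 CPM in the shNT libraries. The shOpa1 libraries were all below the lowest shNT library, a 2.43-fold fall (log2 fold change -1.28 ± 0.085, SE; adjusted p = 1.39e-08). Myl4, the atrial essential light chain, had 882, 894 and 802 CPM in the shOpa1 libraries, against 1521, 1371 and 1448 CPM in the shNT libraries, a 1.68-fold fall (adjusted p = 3.21e-15). Mybpc3, cardiac myosin-binding protein C, averaged 10.1 ± 2.47 CPM in shOpa1 and 27.0 ± 2.12 CPM in shNT (adjusted p = 2.26e-08). Of the cardiac heavy chains, Myh6 averaged 30.4 ± 5.72 CPM in shOpa1 and 50.8 ± 5.18 CPM in shNT (log2 fold change -0.74 ± 0.17, SE; adjusted p = 0.00807) and Myh7 1.13 ± 0.593 CPM in shOpa1 and 3.55 ± 0.716 CPM in shNT (log2 fold change -1.64 ± 0.32, SE; adjusted p = 0.000108). In the opposite direction, the fast skeletal heavy chains rose: Myh1 averaged 43.3 ± 3.65 CPM in shOpa1 and 25.9 ± 4.66 CPM in shNT (adjusted p = 4.49e-06) and Myh2 averaged 8.34 ± 2.94 CPM in shOpa1 and 2.97 ± 0.658 CPM in shNT (adjusted p = 0.000101). Fast heavy chain genes lie in 1 cluster and are near-identical over long stretches, so the split of their reads is uncertain.

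On the thin filament, 7 of 19 genes were lower and 1 was higher (median log2 fold change -0.26). Tnnt2, cardiac troponin T and a standard marker of reprogramming, had 1356, 1398 and 1254 CPM in the shOpa1 libraries, against 2059, 2003 and 2042 CPM in the shNT libraries. The 3 shOpa1 values were close to each other and all below the shNT values, a 1.52-fold fall (log2 fold change -0.61 ± 0.043, SE; adjusted p = 2.96e-14). Actc1, cardiac alpha-actin, averaged 84.1 ± 11.4 CPM in shOpa1 and 145 ± 3.78 CPM in shNT (adjusted p = 2.32e-05), and the tropomyosin gene Tpm2 176 ± 6.18 CPM in shOpa1 and 243 ± 21.0 CPM in shNT (adjusted p = 1.39e-06). Tnni3, adult cardiac troponin I, averaged 10.1 ± 1.30 CPM in shOpa1 and 13.5 ± 1.31 CPM in shNT, at the edge of the threshold (adjusted p = 0.0462, but 0.0547 with replicate as a block, 0.128 without shNT replicate 1, 0.13 without shNT replicate 2, 0.0736 without shOpa1 replicate 1 and 0.197 without shOpa1 replicate 3). Cardiac troponin C, Tnnc1, was not called (10.9 ± 2.61 CPM in shOpa1 and 8.81 ± 1.05 CPM in shNT; adjusted p = 0.167, but 0.0226 without shOpa1 replicate 3). Acta1, skeletal alpha-actin, was the member that was higher (4.69 ± 1.63 CPM in shOpa1 and 2.16 ± 0.445 CPM in shNT; adjusted p = 0.00872, but 0.0581 without shNT replicate 3 and 0.0586 without shOpa1 replicate 2). Muscle actins share most of their coding sequence, so counts of Actc1 and Acta1 are uncertain in the same way as those of the heavy chains.

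The titin and Z-disc list split. Of 31 genes, 11 were lower and 7 higher (median log2 fold change -0.20). Lower was Ttn, the giant spring of the sarcomere, with 34.2, 31.9 and 31.0 CPM in the shOpa1 libraries, against 89.9, 93.4 and 109 CPM in the shNT libraries. No shOpa1 library reached the lowest shNT library, a 3.02-fold fall (log2 fold change -1.59 ± 0.20, SE; adjusted p = 0.000352). Unc45b, a myosin chaperone, averaged 6.93 ± 1.22 CPM in shOpa1 and 18.8 ± 1.34 CPM in shNT (adjusted p = 1.13e-09), the LIM protein gene Fhl2 701 ± 50.8 CPM in shOpa1 and 1244 ± 36.0 CPM in shNT (adjusted p = 1.74e-16), and the Z-disc gene Ldb3 89.2 ± 7.29 CPM in shOpa1 and 128 ± 8.61 CPM in shNT (adjusted p = 1.14e-07). Alpha-actinin 2 (Actn2) was not called (adjusted p = 0.111, but 0.0311 without shNT replicate 3 and 0.0162 without shOpa1 replicate 1). Higher, beside Xirp2, was Synpo2l, a cytoskeletal protein of the Z-disc, with 70.8, 80.9 and 76.8 CPM in the shOpa1 libraries, against 26.7, 29.6 and 31.5 CPM in the shNT libraries. Its shOpa1 libraries all stood above the shNT libraries, a 2.60-fold rise (log2 fold change 1.38 ± 0.093, SE; adjusted p = 8.59e-15). Ankrd1, a stretch-responsive cardiac ankyrin repeat protein, averaged 869.9 ± 41.3 CPM in shOpa1 and 729 ± 8.63 CPM in shNT (adjusted p = 4.75e-05), and the small heat shock protein gene Cryab 419 ± 25.5 CPM in shOpa1 and 309 ± 7.26 CPM in shNT (adjusted p = 6.06e-08). Synpo2, the Z-disc paralogue of Synpo2l, fell 2.02-fold (adjusted p = 3.10e-09).

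Calcium handling genes were lower in part. Of 20 sarcoplasmic reticulum genes, 8 were lower and 1 higher (median log2 fold change -0.30). The calcium pump Atp2a2 averaged 921 ± 69.1 CPM in shOpa1 and 1207 ± 97.7 CPM in shNT (adjusted p = 1.84e-05), its inhibitor sarcolipin (Sln) 14.2 ± 2.82 CPM in shOpa1 and 27.5 ± 3.04 CPM in shNT (adjusted p = 4.18e-08), the release channel Ryr2 87.6 ± 1.08 CPM in shOpa1 and 125 ± 21.6 CPM in shNT (adjusted p = 0.00184) and the calcium store protein Casq2 203 ± 10.5 CPM in shOpa1 and 249.7 ± 6.63 CPM in shNT (adjusted p = 2.92e-05). The member that rose was Asph (165 ± 6.97 CPM in shOpa1 and 112 ± 4.61 CPM in shNT; adjusted p = 1.73e-09), whose gene encodes both junctin of the reticulum and an aspartate hydroxylase. Triadin (Trdn) was not called (adjusted p = 0.932).

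Among 25 cardiac ion channel, exchanger and connexin genes 12 were lower and 1 was higher (median log2 fold change -0.52). Gja1, connexin 43 of gap junctions, had 67.3, 68.4 and 63.4 CPM in the shOpa1 libraries, against 180.4, 199.6 and 189 CPM in the shNT libraries. The groups were wide apart and the libraries close within each, a 2.86-fold fall (log2 fold change -1.51 ± 0.060, SE; adjusted p = 3.45e-21). The atrial connexin gene Gja5 fell 2.57-fold (adjusted p = 0.000132), the potassium channel gene Kcnj5 1.62-fold (adjusted p = 5.02e-11), the sodium-calcium exchanger gene Slc8a1 1.51-fold (adjusted p = 4.44e-09) and the L-type calcium channel gene Cacna1c 1.44-fold (adjusted p = 0.000216).

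The reprogramming factors themselves were not called. Mef2c averaged 269 ± 14.7 CPM in shOpa1 and 276 ± 26.2 CPM in shNT (adjusted p = 0.718), Gata4 447 ± 25.8 CPM in shOpa1 and 481 ± 33.6 CPM in shNT (adjusted p = 0.138, but 0.0337 without shNT replicate 1) and Tbx5 305 ± 24.6 CPM in shOpa1 and 322 ± 21.7 CPM in shNT (adjusted p = 0.347). Reads from the virus and from the cell's own copy of these genes fall in the same count, so the 2 sources cannot be told apart. Of 24 cardiac transcription regulators 4 were higher and 4 lower, shares close to those of all genes. Tbx20 fell 1.504-fold (804 ± 44.8 CPM in shOpa1 and 1208 ± 94.2 CPM in shNT; adjusted p = 2.24e-10) and Hand2 1.38-fold (adjusted p = 0.000245). Natriuretic peptide A (Nppa), a hormone of atrial muscle, had 15.5, 13.03 and 15.1 CPM in the shOpa1 libraries, against 41.5, 31.4 and 28.4 CPM in the shNT libraries, with no overlap and a 2.31-fold fall (adjusted p = 6.36e-08). Its list, of natriuretic peptides and other cardiomyocyte genes, had 27 genes tested, Nppa included. Of these, 12 were lower and 2 higher (median log2 fold change -0.25). Among the lower ones were the creatine kinase gene Ckb (-0.68) and the desmosome gene Pkp2 (-0.79). Npr3, the natriuretic peptide clearance receptor, rose 2.39-fold (56.7 ± 4.93 CPM in shOpa1 and 23.7 ± 3.60 CPM in shNT; adjusted p = 1.44e-11). Myoglobin (Mb) was not called (adjusted p = 0.775).

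**Figure D2:**
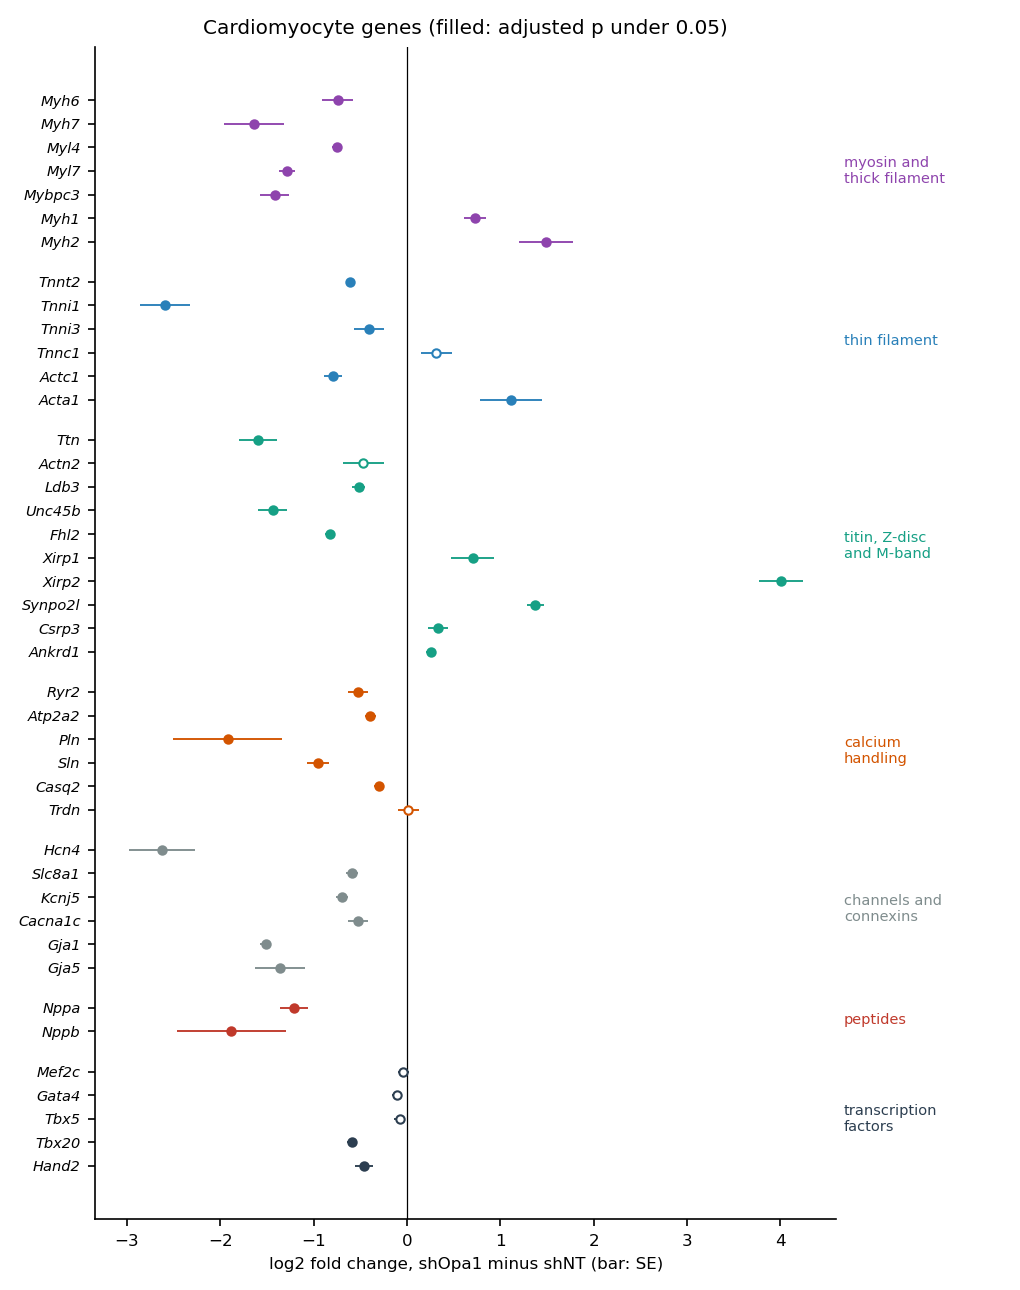
Log2 fold change of cardiomyocyte genes, shOpa1 minus shNT, with bars of 1 SE and genes grouped by role from top to bottom. Filled points passed an adjusted p of 0.05; most of those plotted lie left of 0, while Xirp2 (4.005), Myh2 (1.49) and Synpo2l (1.38) lie to the right and Mef2c, Gata4 and Tbx5 sit near 0.

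Smooth muscle and myofibroblast contractile genes fell as well, in cells where they mark activated fibroblasts. Of 31 tested, 21 were lower and 3 higher (median log2 fold change -0.27), and their summed level was 14931 to 15693 CPM in shOpa1 and 17935 to 18181 CPM in shNT. Mylk, myosin light chain kinase, had 104, 102 and 90.7 CPM in the shOpa1 libraries, against 199, 226 and 229.6 CPM in the shNT libraries. Its libraries formed 2 groups without overlap, a 2.21-fold fall (log2 fold change -1.14 ± 0.064, SE; adjusted p = 5.50e-17). Myl9, the smooth muscle regulatory light chain, fell 1.52-fold (adjusted p = 1.52e-12), the integrin gene Itgb5 1.70-fold (adjusted p = 5.20e-18) and calponin (Cnn1) 1.66-fold (adjusted p = 2.42e-05). Smooth muscle actin, Acta2, fell by less, at 2477 ± 53.1 CPM in shOpa1 and 2884 ± 132 CPM in shNT (log2 fold change -0.22 ± 0.039, SE; adjusted p = 2.79e-05). Myh11 was not called (adjusted p = 0.721). The 3 members that rose were the adhesion genes Zyx (log2 fold change 0.37) and Actn1 (0.22) and the membrane protein gene Ckap4 (0.19).

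Promoter windows of contractile genes are shown here for the letters of a known muscle element, as a description without a test. The windows are those of RefSeq on GRCm38.p6, from 250 bases before to 50 after the annotated start. CATTCC, the core of the M-CAT element bound by TEAD factors in muscle genes, was searched on both strands. It was found in 14.7% of all 32851 windows, in 45.0% of 20 thick filament windows, in 28.6% of 21 thin filament windows, in 28.6% of 28 titin and Z-disc windows and in 32.3% of 31 smooth muscle windows. The table has windows for 17 of 17, 15 of 19, 22 of 31 and 27 of 31 tested genes of these lists, some with several, so a share covers matched genes alone. Below are the 150 bases before the start of 3 genes that fell, with the element in capitals on either strand: Myl7 (chr11:5898783-5898932, minus strand), Tnnt2 (chr1:135836184-135836333, plus strand) and Trim63 (chr4:134314970-134315119, plus strand), the gene of a muscle ubiquitin ligase (log2 fold change -0.67).
Myl7: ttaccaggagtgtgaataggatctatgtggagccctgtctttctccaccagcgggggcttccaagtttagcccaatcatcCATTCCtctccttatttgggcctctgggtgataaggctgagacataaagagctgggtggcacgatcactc
Tnnt2: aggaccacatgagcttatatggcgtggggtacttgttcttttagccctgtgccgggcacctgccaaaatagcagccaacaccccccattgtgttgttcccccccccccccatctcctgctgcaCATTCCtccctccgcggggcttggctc
Trim63: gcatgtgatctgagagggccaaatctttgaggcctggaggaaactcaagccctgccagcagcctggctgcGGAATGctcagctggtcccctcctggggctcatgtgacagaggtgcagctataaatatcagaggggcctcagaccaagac
Ankrd1, Acta1 and Myh1, which rose, also hold the letters in their windows. So do Myh6, Myh7, Mybpc2, Tpm1, Ttn, Hspb7, Acta2, Tagln2, Cald1, Mylk, Flna, Vcl and Palld, which were lower. Myl1, Myl3, Mylk3, Mybph, Tnnc1, Nebl, Tmod1, Mypn, Ankrd23, Trim54, Smtn and Lmod1 hold them and were not called.

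The extracellular matrix was reshaped in both directions. Among 48 matrix glycoprotein and proteoglycan genes 24 were lower and 9 higher (median log2 fold change -0.31). Lower were the laminin chains Lamc1 (640.5 ± 4.20 CPM in shOpa1 and 1232 ± 93.6 CPM in shNT; adjusted p = 1.60e-18), Lamb1 (log2 fold change -0.63), Lama2 (-0.66), Lama4 (-0.66) and Lama5 (-0.95), all of basement membranes, the microfibril gene Mfap4, which fell 2.26-fold (adjusted p = 5.51e-19), and the small proteoglycans Bgn (-0.50), Lum (-0.79) and Ogn (-0.98). Sparc, an abundant matricellular protein, fell 1.47-fold (adjusted p = 7.11e-16). Higher was Ctgf, a matricellular growth factor modulator, with 2766, 3003 and 2682 CPM in the shOpa1 libraries, against 1663, 1717 and 1721 CPM in the shNT libraries. The lowest shOpa1 library stood above the highest shNT library, a 1.66-fold rise (log2 fold change 0.73 ± 0.043, SE; adjusted p = 1.39e-16). Thbs1 rose 1.48-fold (adjusted p = 1.24e-14), elastin (Eln) 1.76-fold (adjusted p = 7.09e-08) and tenascin C (Tnc) 1.55-fold (adjusted p = 6.54e-10).

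Of 41 collagen and collagen enzyme genes 12 were higher and 11 lower. Col3a1, a fibrillar collagen of early scars, rose 1.36-fold (9845 ± 112 CPM in shOpa1 and 7255 ± 175 CPM in shNT; adjusted p = 5.60e-13), while Col18a1, a basement membrane collagen, fell 2.24-fold (adjusted p = 8.37e-18). The hydroxylases that finish collagen chains, Plod1 (log2 fold change 0.45), Plod2 (0.27), Plod3 (0.19), P4ha1 (0.20) and P4ha2 (0.33), rose, while P4ha3 stood at -0.31 (adjusted p = 0.0448, but 0.055 with replicate as a block and 0.0646 to 0.25 without any 1 library but shNT replicate 1). The crosslinking lysyl oxidase gene Lox went the other way, with 924, 940.2 and 958 CPM in the shOpa1 libraries, against 1714, 1813 and 1820.1 CPM in the shNT libraries. Each group was tight and every shOpa1 library lay well below every shNT library, a 1.89-fold fall (log2 fold change -0.92 ± 0.042, SE; adjusted p = 1.39e-19). Matrix proteases and inhibitors split into 11 higher and 6 lower of 25. Mmp17 rose 2.54-fold (adjusted p = 1.78e-09) and the protease gene Adamts1 1.53-fold (adjusted p = 2.79e-11), while Timp1 fell 1.41-fold (adjusted p = 5.42e-07). Of 33 TGF-beta family genes 9 were higher and 9 lower, 27.3% each beside 14.3% higher and 15.1% lower of all genes. The activin chains Inhba (2.04-fold; adjusted p = 1.78e-10) and Inhbb (2.34-fold; adjusted p = 5.51e-19) rose, and Smad2 fell (log2 fold change -0.53). The feedback inhibitor Smad7 was not called (adjusted p = 0.136, but 0.0333 without shNT replicate 3).

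Fibroblast identity genes gave no single direction, with 8 higher and 12 lower of 33 (median log2 fold change -0.066). The receptor gene Pdgfra fell 1.58-fold (adjusted p = 8.63e-11), the fibroblast transcription factor gene Tcf21 1.505-fold (adjusted p = 7.89e-10) and vimentin (Vim) 1.55-fold (adjusted p = 2.28e-16). Ly6a, the surface glycoprotein gene Cd248 (log2 fold change 0.96) and the transcription factor gene Osr1 (1.05) rose. Epicardial and mesothelial markers were lower for 9 and higher for 2 of 17 (1 higher with replicate as a block or without any 1 library but shNT replicate 2) and their summed level was 865.0 to 901.4 CPM in shOpa1 and 898.8 to 939.3 CPM in shNT. Of these, Msln fell 1.51-fold (adjusted p = 2.46e-05), Lrrn4 1.84-fold (adjusted p = 6.41e-10) and Wt1 1.61-fold (adjusted p = 0.000405), while Sema3d rose 1.48-fold (adjusted p = 4.75e-10). Of 20 endothelial markers 3 were higher and 4 lower (1 lower without shNT replicate 2 or shOpa1 replicate 3, 2 without shNT replicate 3; median log2 fold change -0.54), beside 14.3% higher and 15.1% lower of all genes. Macrophage markers leaned upward (21 of 22 with a log2 fold change above 0, median log2 fold change 0.69), but 1 was called. It was the complement gene C1qa (22.6 ± 7.34 CPM in shOpa1 and 8.02 ± 0.901 CPM in shNT; adjusted p = 0.0239; 0.057 with replicate as a block, and 0.0586 to 0.0813 without any 1 library but shOpa1 replicate 2). Replicate 3 of shOpa1 held the most macrophage marker counts, 1037 CPM against 371.6 CPM in replicate 2, and the part of this library's macrophage RNA in other results was not tested.

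**Figure D3:**
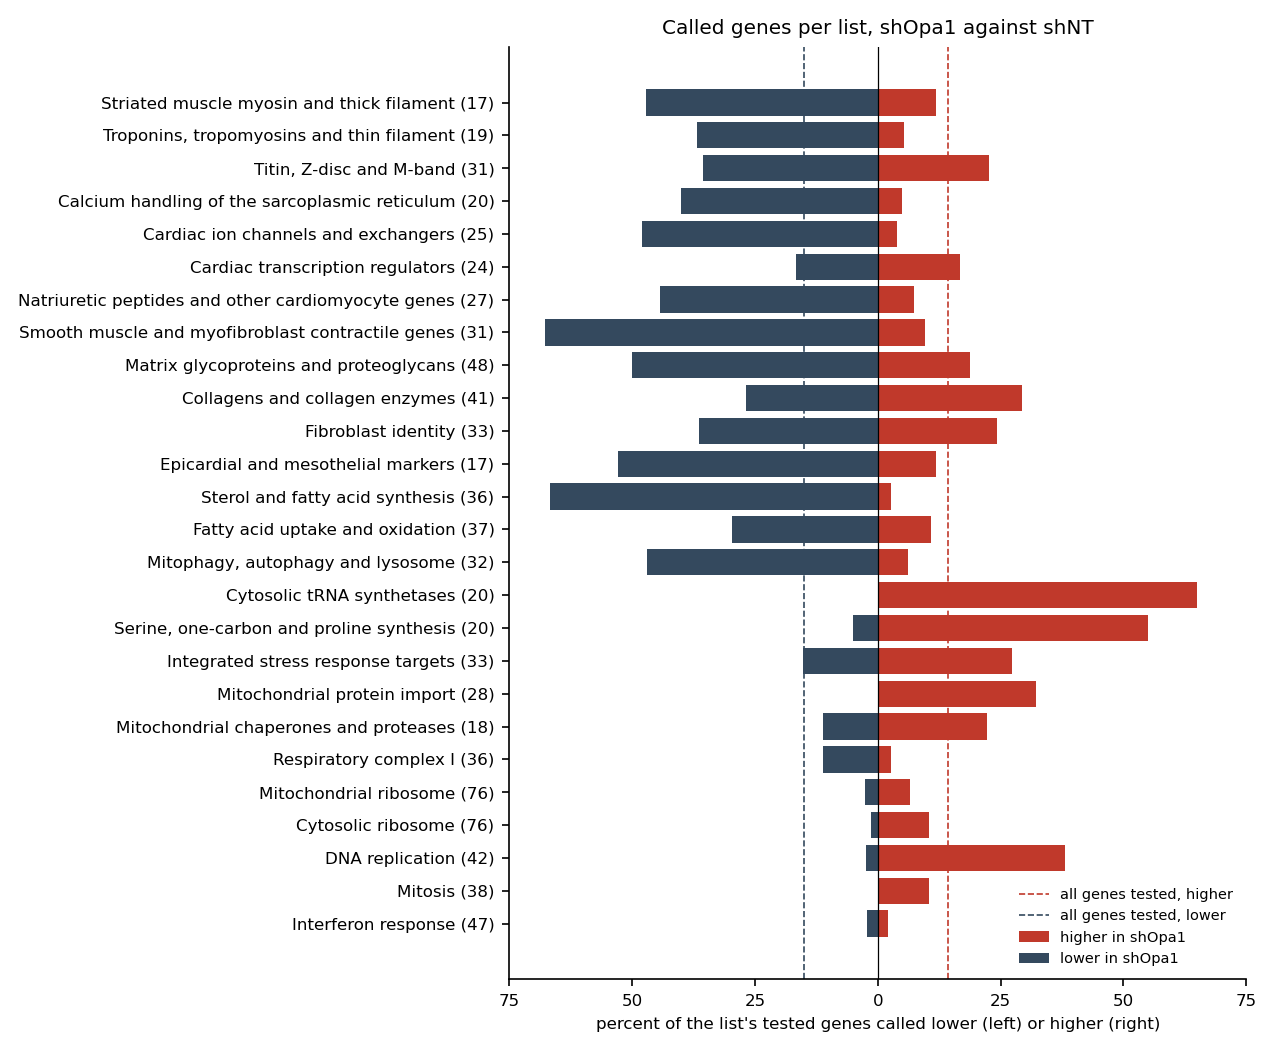
Percent of each list's tested genes that were called higher (right) or lower (left) in shOpa1, with the number tested in brackets. Dashed lines mark the share of all genes tested, 14.3% higher and 15.1% lower; the longest bars are smooth muscle genes (67.7% lower), sterol and fatty acid synthesis (66.7% lower) and cytosolic tRNA synthetases (65.0% higher).

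Genes of mitochondrial fusion and fission were counted beside the shares of all genes tested, 14.3% higher and 15.1% lower. For Opa1 and its processing machinery the shares were 16.7% higher and 25% lower. For outer membrane fusion and fission genes they were 22.7% higher and 13.6% lower. Of 12 genes of Opa1 and its processing machinery 2 were higher (1 without shNT replicate 3 or shOpa1 replicate 2) and 3 lower, Opa1 included, and of 22 outer membrane fusion and fission genes 5 were higher (2 without shNT replicate 3) and 3 lower. Mfn2, an outer membrane mitofusin, had 62.5, 54.5 and 50.8 CPM in the shOpa1 libraries, against 95.2, 94.7 and 115 CPM in the shNT libraries. All shOpa1 libraries lay below all shNT libraries, a 1.82-fold fall (log2 fold change -0.86 ± 0.082, SE; adjusted p = 1.36e-10). Its paralogue Mfn1 (adjusted p = 0.946), the fission GTPase gene Dnm1l (adjusted p = 0.588) and the protease gene Oma1 (adjusted p = 0.992) were not called. Yme1l1 stood at the threshold (145 ± 5.88 CPM in shOpa1 and 163 ± 4.14 CPM in shNT; adjusted p = 0.0466, but 0.056 to 0.171 on leaving out each of the 6 libraries in turn). The matrix protease gene Afg3l2 rose 1.27-fold (adjusted p = 0.00219), as did Stoml2, an inner membrane scaffold gene (log2 fold change 0.34; adjusted p = 0.0107, but 0.0755 without shNT replicate 3 and 0.0687 without shOpa1 replicate 2), and Chchd10, of the intermembrane space, fell (log2 fold change -0.44; adjusted p = 0.00459). Fis1, an outer membrane adaptor of fission, fell 1.22-fold (adjusted p = 0.00157), and the formin gene Inf2 fell too (log2 fold change -0.30; adjusted p = 0.00341). The outer membrane list's rises were those of the actin nucleator gene Spire1 (log2 fold change 0.93; adjusted p = 0.000443), the mitochondrial phosphatase gene Pgam5 (0.34; adjusted p = 0.00478), Mtfr1 (0.29; adjusted p = 0.0156), Msto1 (0.29; adjusted p = 0.0193) and Fam73b (0.21; adjusted p = 0.0445). Those of Mtfr1 and Msto1 were not called without shNT replicate 3 (adjusted p = 0.0533 and 0.118) or shOpa1 replicate 3 (0.0721 and 0.0859), and that of Fam73b neither with replicate as a block (0.0535) nor without any 1 library but shOpa1 replicate 3 (0.0702 to 0.136). Immt (mitofilin), the core of the MICOS complex that builds cristae junctions and binds Opa1, fell 1.26-fold (101 ± 5.93 CPM in shOpa1 and 127 ± 11.5 CPM in shNT; adjusted p = 0.000232), and the other 11 MICOS and cristae genes were not called.

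Some chaperone, protease and import genes rose. Hspd1, the matrix chaperonin HSP60, had 107, 106 and 101 CPM in the shOpa1 libraries, against 57.3, 67.5 and 56.9 CPM in the shNT libraries. Its shOpa1 libraries were all higher than any shNT library, a 1.72-fold rise (log2 fold change 0.79 ± 0.080, SE; adjusted p = 5.15e-10). The matrix chaperone Hspa9 rose 1.29-fold (adjusted p = 1.79e-07) and the presequence protease gene Pitrm1 1.51-fold (adjusted p = 3.15e-10), while the co-chaperone gene Dnaja3 fell 1.38-fold (adjusted p = 0.000388). Of 18 genes in this list 4 were higher and 2 lower (1 lower without shNT replicate 1). These shares, 22.2% and 11.1%, stand beside 14.3% higher and 15.1% lower of all genes. Of 28 protein import genes 9 were higher and none lower (median log2 fold change 0.14; 5 higher without shNT replicate 3), led by the outer membrane receptor gene Tomm70a (0.46), the import pore gene Tomm40 (0.42) and the inner membrane translocase gene Timm50 (0.43). Ppargc1a, the coactivator of mitochondrial biogenesis, fell 2.84-fold at a low level (1.53, 1.05 and 0.715 CPM in the shOpa1 libraries, against 3.66, 2.76 and 2.98 CPM in the shNT libraries; adjusted p = 0.00209), while its relative Pprc1 (log2 fold change 0.46) and the mitochondrial DNA polymerase gene Polg (0.49) rose. Tfam, which packs mitochondrial DNA, was not called (adjusted p = 0.945).

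Nuclear genes of the respiratory chain were counted by complex. For complex I, 31 of 36 subunit and assembly genes were not called, 4 were lower and 1 was higher. The largest fall was that of Ndufs8, an iron-sulphur subunit (29.7 ± 6.09 CPM in shOpa1 and 56.7 ± 1.26 CPM in shNT; adjusted p = 1.50e-06). Among 26 genes of complexes III and IV 3 were higher (5 without shNT replicate 1) and 2 lower (1 with replicate as a block or without shNT replicate 1, shOpa1 replicate 1 or shOpa1 replicate 2, 0 without shNT replicate 2), and among 16 ATP synthase genes 3 were higher (1 without shNT replicate 2, shNT replicate 3, shOpa1 replicate 2 or shOpa1 replicate 3) and 3 lower, 18.8% each. For complex I, III and IV the shares in each direction were under those of all genes, 14.3% higher and 15.1% lower, and for ATP synthase they were above. Of 76 mitochondrial ribosome genes 5 were higher and 2 lower (2 higher without shNT replicate 2 or shOpa1 replicate 1, 3 without shNT replicate 3 or shOpa1 replicate 3; 1 lower with replicate as a block or without shNT replicate 3, 0 without shNT replicate 1 or shOpa1 replicate 3), shares under those of all genes. In the tricarboxylic acid cycle list 6 of 31 were higher (19.4%) and 4 lower (12.9%), with 0 lower without shNT replicate 3 and 2 without shOpa1 replicate 1 or 2. Citrate synthase (Cs) was not called (213 ± 4.65 CPM in shOpa1 and 216 ± 6.54 CPM in shNT; adjusted p = 0.857).

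Genes of serine and one-carbon metabolism and of tRNA charging rose together, while Atf4, Atf5 and Ddit3 did not pass the test. Of 20 serine, one-carbon and proline genes 11 were higher and 1 lower (median log2 fold change 0.29). Phgdh, the first enzyme of serine synthesis, had 61.3, 67.1 and 66.9 CPM in the shOpa1 libraries, against 45.6, 44.9 and 41.1 CPM in the shNT libraries. The groups were apart in every library, a 1.48-fold rise (log2 fold change 0.57 ± 0.088, SE; adjusted p = 2.50e-06). Psat1, the next enzyme, rose 1.46-fold (adjusted p = 0.000165), and the mitochondrial folate enzymes Shmt2 1.42-fold (adjusted p = 5.72e-07), Mthfd2 1.41-fold (adjusted p = 3.42e-06) and Mthfd1l 1.37-fold (adjusted p = 0.000112). The member that fell was Mthfd2l, a relative of Mthfd2 (4.52 ± 1.46 CPM in shOpa1 and 9.94 ± 1.08 CPM in shNT; adjusted p = 0.000244).

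Of 20 cytosolic tRNA synthetases 13 were higher and none lower (median log2 fold change 0.21), with 8 higher without shOpa1 replicate 3. Aars, which charges alanine tRNA, had 453, 486 and 479 CPM in the shOpa1 libraries, against 349, 374 and 345 CPM in the shNT libraries. Its shOpa1 libraries stood above all shNT libraries, a 1.33-fold rise (log2 fold change 0.41 ± 0.050, SE; adjusted p = 2.14e-08). Nars rose 1.32-fold (adjusted p = 6.09e-08) and Yars 1.33-fold (adjusted p = 2.47e-06).

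Of 33 integrated stress response targets 9 were higher and 5 lower (3 lower without shNT replicate 2 or without shOpa1 replicate 1). The share higher was 27.3%, beside 14.3% of all genes, and the share lower was 15.2%, close to the 15.1% of all genes. The mRNAs of Atf4 (204 ± 11.1 CPM in shOpa1 and 216 ± 7.56 CPM in shNT; adjusted p = 0.345), Atf5 (adjusted p = 0.524), Ddit3, which encodes CHOP (adjusted p = 0.581), and the glutathione-degrading enzyme Chac1 (adjusted p = 0.11, but 0.00937 without shOpa1 replicate 1) were not called. Atf4 is mainly controlled at translation, which these libraries do not measure. Asns, asparagine synthetase, was not called (130.3 ± 11.5 CPM in shOpa1 and 122 ± 7.48 CPM in shNT; adjusted p = 0.312). Atf3, an early stress factor, had 32.5, 33.9 and 32.4 CPM in the shOpa1 libraries, against 11.7, 14.04 and 15.5 CPM in the shNT libraries. No shNT library came near the lowest shOpa1 library, a 2.39-fold rise (log2 fold change 1.26 ± 0.14, SE; adjusted p = 4.03e-09). Sesn2, an inhibitor of mTORC1, rose 1.61-fold (adjusted p = 2.67e-08), the stress hormone gene Gdf15 1.72-fold (16.8 ± 1.08 CPM in shOpa1 and 9.79 ± 0.875 CPM in shNT; adjusted p = 0.00012), the chromatin-associated Nupr1 1.51-fold (adjusted p = 1.33e-07) and the amino acid transporter genes Slc7a1 1.55-fold (adjusted p = 3.67e-11) and Slc7a11 1.51-fold (adjusted p = 0.000503). Lower were Ddit4, another mTORC1 inhibitor, which fell 2.07-fold (adjusted p = 1.75e-10), and Trib3, a pseudokinase that restrains Atf4 (41.4 ± 7.89 CPM in shOpa1 and 52.4 ± 3.58 CPM in shNT; adjusted p = 0.0132, but 0.0775 without shNT replicate 2 and 0.17 without shOpa1 replicate 1). Fgf21, a secreted metabolic hormone, had at most 1.38 CPM in any library and was not called (adjusted p = 0.293).

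The letters TGATGNAA, the core of the element that Atf4 binds with C/EBP partners, were searched in the same RefSeq windows on both strands. They were found in 3.97% of all 32851 windows, in 30.6% of 36 windows of stress response targets, in 12.5% of 16 serine and one-carbon windows and in 38.5% of 13 tRNA synthetase windows, which cover 28 of 33, 15 of 20 and 13 of 20 tested genes. These shares are a description without a test. The stress response list was written as targets of this response, so its share does not bear on Opa1 knockdown. The 150 bases before the start are shown for 5 genes that rose and for Asns, which was not called, with the element in capitals on either strand. They are Atf3 (chr1:191183334-191183483, minus strand), Nupr1 (chr7:126625471-126625620, minus strand), Slc7a11 (chr3:50443614-50443763, minus strand), Aars (chr8:111033692-111033841, plus strand), Gars (chr6:55037851-55038000, plus strand; log2 fold change 0.27) and Asns (chr6:7693210-7693359, minus strand).
Atf3: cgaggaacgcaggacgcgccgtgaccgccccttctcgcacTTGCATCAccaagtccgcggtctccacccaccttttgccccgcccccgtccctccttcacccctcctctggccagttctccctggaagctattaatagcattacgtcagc
Nupr1: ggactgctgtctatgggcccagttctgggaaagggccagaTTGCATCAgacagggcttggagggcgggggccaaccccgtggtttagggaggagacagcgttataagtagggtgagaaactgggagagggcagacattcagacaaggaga
Slc7a11: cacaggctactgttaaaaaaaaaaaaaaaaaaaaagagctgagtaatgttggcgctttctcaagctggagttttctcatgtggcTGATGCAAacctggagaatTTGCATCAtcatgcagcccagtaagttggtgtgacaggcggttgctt
Aars: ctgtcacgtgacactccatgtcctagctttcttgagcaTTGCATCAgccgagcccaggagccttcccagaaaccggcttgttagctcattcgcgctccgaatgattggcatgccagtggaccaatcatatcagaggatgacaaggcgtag
Gars: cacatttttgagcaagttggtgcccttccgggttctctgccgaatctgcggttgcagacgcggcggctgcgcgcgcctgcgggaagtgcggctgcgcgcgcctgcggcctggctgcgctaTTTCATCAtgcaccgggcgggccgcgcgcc
Asns: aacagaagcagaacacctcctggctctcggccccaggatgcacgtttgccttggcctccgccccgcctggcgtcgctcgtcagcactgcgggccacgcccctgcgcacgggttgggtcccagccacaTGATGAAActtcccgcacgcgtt
Trib3, which was lower, holds the letters in its window too. So do Iars, Tars and Yars, which rose. Chac1, Fgf21, Vldlr, Jdp2, Slc1a4, Pck2, Herpud1 and Pycr1 also hold them and were not called. In the serine and one-carbon windows the letters were found for Asns and Pycr1 alone.

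Sterol and fatty acid synthesis fell. Of 36 genes tested 24 were lower and 1 higher (median log2 fold change -0.41). Hmgcs1, which makes the precursor of mevalonate, had 76.7, 69.7 and 67.9 CPM in the shOpa1 libraries, against 135, 148 and 144 CPM in the shNT libraries. Each shOpa1 library held less than any shNT library, a 1.99-fold fall (log2 fold change -0.99 ± 0.070, SE; adjusted p = 2.85e-14). Insig1, the sterol-sensing regulator of the pathway, fell 2.07-fold (adjusted p = 1.05e-13). Down the pathway Idi1 (log2 fold change -0.74), Fdft1 (-0.84), Sqle (-0.44), Lss (-0.50) and Cyp51 (-0.63) fell. Of the fatty acid enzymes, the desaturase gene Scd1 had 76.5, 75.6 and 63.9 CPM in the shOpa1 libraries, against 188, 212 and 193 CPM in the shNT libraries. All shNT libraries stood above all shOpa1 libraries, a 2.75-fold fall (log2 fold change -1.46 ± 0.20, SE; adjusted p = 0.000607). The desaturase gene Fads1 fell 2.04-fold (adjusted p = 9.10e-17) and the elongase gene Elovl6 2.24-fold (adjusted p = 1.53e-07). Fatty acid synthase (Fasn; adjusted p = 0.111, but 0.011 without shNT replicate 1) was not called. The member that rose was Insig2 (log2 fold change 0.41; adjusted p = 0.000362). The letters TCACNCCA, part of the sterol regulatory element, were chosen for a search after these values were seen. They were found in 8.82% of 34 windows of the list (26 of 36 tested genes) and in 4.36% of all windows, among them that of Hmgcs1, shown for the 150 bases before its start (chr13:119690201-119690350, plus strand) with the letters in capitals.
Hmgcs1: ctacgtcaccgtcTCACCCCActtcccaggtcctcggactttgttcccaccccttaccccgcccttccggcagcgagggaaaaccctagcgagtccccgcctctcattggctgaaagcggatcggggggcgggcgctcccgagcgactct

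Fatty acid oxidation leaned down, with 11 lower and 4 higher of 37 (median log2 fold change -0.14). Acaa2, the last thiolase of the mitochondrial spiral, had 40.4, 39.9 and 35.0 CPM in the shOpa1 libraries, against 82.6, 73.8 and 86.3 CPM in the shNT libraries. The shOpa1 libraries were all under the shNT libraries, a 2.10-fold fall (log2 fold change -1.07 ± 0.085, SE; adjusted p = 6.45e-13). The carnitine transferase gene Cpt1a fell 1.70-fold (adjusted p = 1.02e-11) and the dehydrogenase gene Acadm 1.59-fold (adjusted p = 2.16e-07). Glycolysis and hypoxia genes were even, 7 higher and 7 lower of 33, 21.2% each beside 14.3% higher and 15.1% lower of all genes. The glucose transporter gene Slc2a1 rose 1.65-fold (124 ± 4.74 CPM in shOpa1 and 75.2 ± 1.69 CPM in shNT; adjusted p = 1.74e-11) and the vasodilator peptide gene Adm 2.01-fold (adjusted p = 8.01e-17). The muscle enolase gene Eno3 fell 2.44-fold (46.7 ± 4.73 CPM in shOpa1 and 114 ± 4.69 CPM in shNT; adjusted p = 4.28e-16) and the muscle mutase gene Pgam2 1.61-fold (adjusted p = 1.02e-08). Lactate dehydrogenase A (Ldha) was not called (adjusted p = 0.332).

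**Figure D4:**
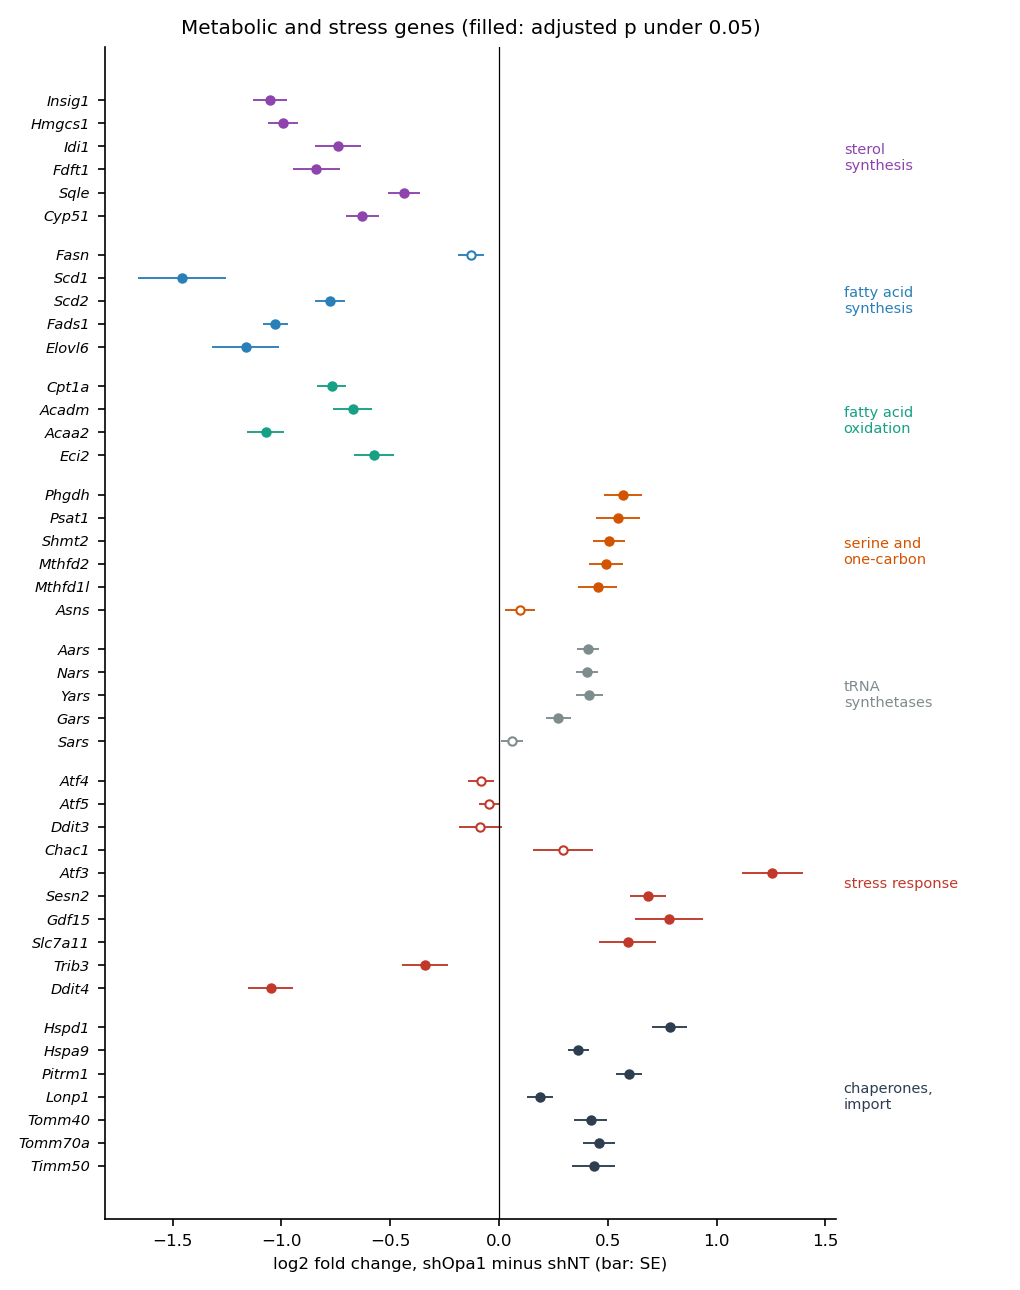
Log2 fold change of metabolic and stress genes, shOpa1 minus shNT, with bars of 1 SE and filled points for an adjusted p under 0.05. The genes plotted for synthesis and oxidation of lipids, a choice from their lists, lie left of 0 (Hmgcs1 -0.99, Scd1 -1.46, Acaa2 -1.07), those for serine, one-carbon and tRNA synthetases right of 0 (Phgdh 0.57, Aars 0.41), and Atf4, Atf5 and Ddit3 near 0.

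Autophagy and lysosome genes were lower for 15 and higher for 2 of 32 (median log2 fold change -0.14). Bnip3l, an outer membrane receptor of mitophagy, had 57.2, 51.8 and 52.8 CPM in the shOpa1 libraries, against 91.6, 93.5 and 95.5 CPM in the shNT libraries. Every shOpa1 library was below every shNT library, a 1.73-fold fall (log2 fold change -0.80 ± 0.080, SE; adjusted p = 3.29e-10). The cargo adaptor gene Sqstm1 fell 1.42-fold (adjusted p = 1.16e-10), the autophagosome gene Map1lc3b 1.37-fold (adjusted p = 5.81e-08), the lysosomal hexosaminidase gene Hexa 1.37-fold (adjusted p = 1.04e-09) and the mitophagy kinase gene Pink1 1.20-fold (adjusted p = 0.0014). The members that rose were Atg5 (log2 fold change 0.38) and Atg12 (0.38), a pair that is joined during autophagosome growth. Of 24 endoplasmic reticulum stress genes 7 were lower and 3 higher (5 higher with library totals alone). Dnajb9, a co-chaperone of the reticulum, fell 2.01-fold (adjusted p = 1.45e-08), while the chaperone gene Hspa5 rose 1.12-fold (adjusted p = 0.00298).

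Many DNA replication genes rose, and few mitotic genes passed the test. Of 42 replication genes 16 were higher and 1 lower, the cyclin gene Ccne2 (adjusted p = 0.0311, but 0.0665 to 0.156 without shNT replicate 1, shNT replicate 2, shOpa1 replicate 1 or shOpa1 replicate 2). The median log2 fold change was 0.28. Mcm2, of the replicative helicase, had 77.9, 81.7 and 102 CPM in the shOpa1 libraries, against 56.7, 59.5 and 59.9 CPM in the shNT libraries. The groups did not overlap, a 1.49-fold rise (log2 fold change 0.57 ± 0.092, SE; adjusted p = 9.40e-06). The helicase genes Mcm3 (log2 fold change 0.47), Mcm5 (0.67) and Mcm6 (0.44), the licensing factor gene Cdt1 (0.68), the polymerase gene Pola1 (0.60) and the uracil glycosylase gene Ung (1.255) also rose. Of 38 mitotic genes 4 were higher (2 without shNT replicate 3 or shOpa1 replicate 3), none was lower (1 without shOpa1 replicate 3), and 34 were not called, among them Mki67 (105 ± 20.6 CPM in shOpa1 and 106 ± 3.14 CPM in shNT; adjusted p = 0.966) and Cdk1 (adjusted p = 0.286). Higher were 38.1% of the replication and 10.5% of the mitotic genes, beside 14.3% of all genes. Lower were 2.38% and 0%, beside 15.1%. The difference between the 2 lists was not tested. Letters of the CHR element of mitotic promoters (TTTGAA, both strands) were in 76.5% of 34 windows of the mitotic list (32 of 38 tested genes) and in 17.9% of all windows. This share describes the list without a test and does not bear on Opa1 knockdown. The p53 list moved in both directions, with 11 higher and 11 lower of 33. These shares, 33.3% each, were above the 14.3% higher and 15.1% lower of all genes. Cdkn1a, the cell cycle inhibitor p21, rose 1.34-fold (478 ± 11.01 CPM in shOpa1 and 356 ± 8.25 CPM in shNT; adjusted p = 4.10e-09), as did Btg2 (log2 fold change 0.74), while Ccng1 (-0.48), Eda2r (-0.79) and Sesn1 (-0.86) fell.

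Interferon genes showed no called direction, with 1 higher and 1 lower of 47 (0 and 0 with replicate as a block, and 0 to 4 higher and 0 to 2 lower on leaving out each library in turn, with 4 higher without shOpa1 replicate 1). Isg15 (adjusted p = 0.791) was not called, nor was the cytosolic DNA sensor adaptor gene Tmem173 (adjusted p = 0.227). Among 26 acute phase, complement and adhesion genes 9 were lower and 4 higher. Beside Ptx3, the protease inhibitor gene Serpina3n rose 1.71-fold (adjusted p = 9.40e-11), while the complement genes C1s (log2 fold change -1.11) and C1ra (-0.71) and the adhesion gene Vcam1 (-0.56) fell. Csf1, the macrophage growth factor, rose 1.67-fold (1039 ± 44.4 CPM in shOpa1 and 622 ± 16.5 CPM in shNT; adjusted p = 6.98e-16). Of 18 Notch pathway genes 7 were higher and 1 was lower (0 lower without shNT replicate 1, shNT replicate 3 or shOpa1 replicate 1). Jag1, a ligand, rose 1.61-fold (adjusted p = 8.68e-09), the receptor gene Notch3 1.33-fold (adjusted p = 8.19e-06) and the DNA-binding partner gene Rbpj 1.40-fold (adjusted p = 5.68e-06), while the targets Hes1 (adjusted p = 0.88) and Hey1 (adjusted p = 0.653) were not called. Of 29 Wnt genes 10 were lower and 3 higher. The secreted inhibitor gene Dkk3 fell 2.36-fold (adjusted p = 1.53e-10) and the secreted modulator gene Sfrp2 rose 3.63-fold (25.5 ± 0.429 CPM in shOpa1 and 7.01 ± 1.63 CPM in shNT; adjusted p = 2.35e-10). The Wnt target Axin2 was not called (adjusted p = 0.949). Bmi1, a polycomb gene known as a barrier to cardiac reprogramming, had 31.2, 33.5 and 30.1 CPM in the shOpa1 libraries, against 57.5, 63.4 and 59.9 CPM in the shNT libraries. Its levels separated the groups, with a 1.91-fold fall (log2 fold change -0.93 ± 0.087, SE; adjusted p = 5.31e-11). The list of Bmi1 did not share this fall. Of 26 polycomb and chromatin barrier genes 6 were higher (23.1%) and 3 lower (11.5%), with a median log2 fold change of 0.12. All genes tested had 14.3% higher and 15.1% lower.

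Opa1 was also knocked down on a second background, where the double knockdown is set against shMtfr1l. The 2 contrasts share no library. Opa1 averaged 18.3 ± 2.34 CPM in the double knockdown and 72.1 ± 1.35 CPM in shMtfr1l (SD, n = 3 each; log2 fold change -1.98; adjusted p = 2.26e-06). The fall was smaller than without Mtfr1l knockdown, though the difference was not called (interaction 0.84; adjusted p = 0.104). Mtfr1l itself was higher in the double knockdown than in shMtfr1l (0.73; adjusted p = 5.27e-06), so the background also differed in depth of its own knockdown. In that contrast 1377 genes were higher (9.72%) and 1664 lower (11.7%). Of the 4164 genes called in shOpa1 against shNT, 3765 (90.4%) had the same sign on the second background, against 64.5% of the genes not called. Called with the same sign in both were 1995 genes, 47.9% of the calls of the first contrast and 65.6% of those of the second, and 28 were called with opposite signs. Over the genes called in the first contrast the median size of the log2 change was 0.441 in that contrast and 0.262 in the other. These genes were chosen by their change in the first contrast, a choice that favours larger changes there.

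The difference between both contrasts was called for 504 genes (3.56%). In 222 (1.57%) the change was higher on the second background, and in 282 (1.99%) lower. Of the 504, 402 were called in shOpa1 against shNT. Of these 402, 386 moved less or the other way on the second background, and 140 had the opposite sign. Both calls use the change in shOpa1 against shNT. Choosing genes by both therefore favours those that moved less on the second background, and the 386 are no separate evidence of a weaker effect. Myosin and thick filament genes were lower there for 8 of 17 (median log2 fold change -1.18), titin and Z-disc genes for 20 of 31 (median log2 fold change -0.44) and channel genes for 12 of 25. Tnnt2 fell by a log2 change of 0.67 there (adjusted p = 5.65e-15) and the interaction was not called (adjusted p = 0.729). The tRNA synthetase and serine lists kept medians of 0.26 and 0.31, with 13 of 20 and 12 of 20 higher. For sterol and fatty acid synthesis 14 of 36 were lower (median log2 fold change -0.18). Other lists did not keep their direction. Epicardial and mesothelial markers were higher for 4 and lower for 2 of 17 there, with a median of 0.17 against -0.40 with Opa1 knockdown alone. Acute phase, complement and adhesion genes were higher for 8 and lower for 4 of 26, with a median of 0.17 against -0.18.

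Some Z-disc and calcium genes departed. Ankrd1 had a log2 fold change of 0.25 with Opa1 knockdown alone and -0.14 on the second background (interaction adjusted p = 0.000215), and Synpo2l 1.38 and 0.41 (interaction adjusted p = 5.42e-06). Trdn, not called alone, was at -0.82 on the second background (interaction adjusted p = 0.00068). Lox had -0.92 and -0.24, with an interaction of 0.69 (adjusted p = 7.70e-10), and the glycosyltransferase gene Galnt16 2.02 and 0.51 (-1.50; adjusted p = 1.14e-08). The 2 backgrounds started from different levels of these genes. Lox averaged 1782 ± 59.4 CPM in shNT, 1073 ± 24.9 CPM in shMtfr1l and 910 ± 20.2 CPM in the double knockdown. Galnt16 averaged 16.5 ± 0.903, 33.6 ± 4.83 and 48.0 ± 1.37 CPM in the same order. The change from shNT to shMtfr1l was not tested here. Galnt16 had 66.3, 73.7 and 60.7 CPM in the shOpa1 libraries, against 15.7, 17.5 and 16.4 CPM in the shNT libraries. Its rise was seen in every shOpa1 library. Saa3 fell with Opa1 knockdown alone (2.72, 2.24 and 2.53 CPM in the shOpa1 libraries, against 13.98, 5.86 and 13.1 CPM in the shNT libraries) and rose on the second background (1.68; adjusted p = 0.00148), an interaction of 3.81 (adjusted p = 2.16e-05). This rise was at a low level, from 1.03 ± 0.443 CPM in shMtfr1l to 3.33 ± 1.58 CPM in the double knockdown. Both means were under the lowest shNT library.

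**Figure D5:**
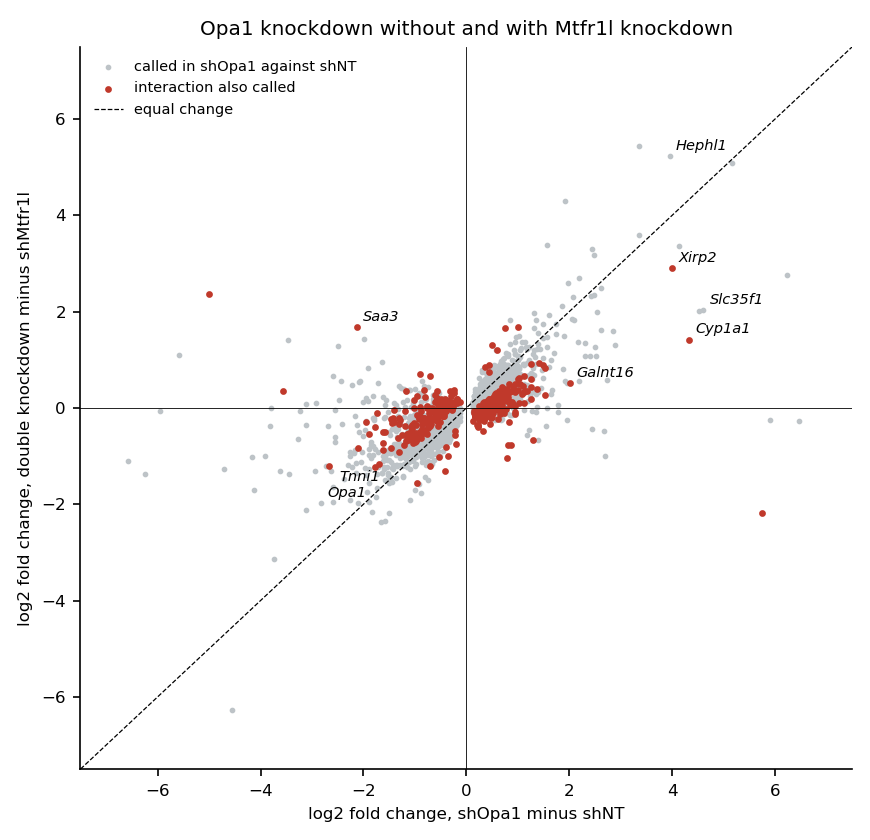
Log2 fold change of each of the 4164 genes called in shOpa1 against shNT (horizontal) beside its change in the double knockdown against shMtfr1l (vertical), 1 point per gene. Red points mark the 402 with a called interaction. On the second background 3439 of the 4164 genes moved less in size, but they were chosen by their change in the first contrast. Saa3 sits in the upper left at -2.13 and 1.68.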

How the data were processed

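RNA was sequenced from neonatal mouse cardiac fibroblasts under reprogramming. The deposited table holds raw counts per gene on mm10, made by the authors with featureCounts 2.0.6, reverse-stranded, with each mate counted by itself, per the file headers. Of the counts from 1 to 20 in the shOpa1 and shNT libraries 65.75% are even, so counts overstate the number of fragments, and halved counts were run as an alternative. Per the submitters' processing notes FastQC and DESeq2 were used, with no role stated; no source names the aligner. The 18 count columns of the libraries from another set, which hold no Opa1 knockdown, were not used.

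Genes were filtered with filterByExpr and scaled by TMM over 12 libraries, and 1 coefficient per group was fitted with edgeR 4.0.16 in R 4.3.3 (quasi-likelihood test, robust estimation, 8 residual degrees of freedom, biological coefficient of variation 12.04%). P-values were adjusted by Benjamini-Hochberg over all 14162 genes, and a gene was called under 0.05. Each SE was taken from the size of the log2 fold change and its F value. Alternatives were DESeq2 1.42.0, other scalings and filters, a replicate block, the 6 libraries alone and each library left out.

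Replicate numbers stand for days 7, 8 and 9 in the titles. Deviations of same-numbered shOpa1 and shNT libraries from their group means correlated at 0.00153, 0.0209 and -0.0971. Depth was 16205862 to 23527030 counts, and intervals on counting error are not given since replicate spread is larger.

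Members and gene lists were chosen with earlier results of these data known. Named genes are Opa1, the 15 largest rises and falls that were called, averaged 2 CPM or more over the 6 libraries and did not overlap between groups, and key and lowest-p members of each list. The 5 genes with the smallest interaction p were added. List members named beyond these were chosen after their values were seen, and a few genes that the rule names are not reported here, though list counts include them.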

Additional observations from a re-analysis of the deposited data

Results flagged for a closer look

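The change after Opa1 knockdown differed between the 2 backgrounds, by edgeR's quasi-likelihood test of the interaction with adjusted p under 0.05, for the genes below. Each value is the log2 change in double knockdown against shMtfr1l minus that in shOpa1 against shNT, with 3 libraries a group. A positive value means a higher change on the shMtfr1l background. Only the total number of interactions was followed through the alternative fits, not the interaction of each gene. The 5 smallest p-values were those of Lox (0.69), Galnt16 (-1.50), the adhesion gene Vcam1 (0.76), the secreted protease gene Htra1 (-0.68) and Adamts1 (-0.65). For all 5 the mean level in shMtfr1l differed from that in shNT in the same direction as that in shOpa1. Mean levels in shNT, shOpa1 and shMtfr1l were 278, 188 and 174 CPM for Vcam1 and 321, 453 and 509 CPM for Htra1. For Adamts1 they were 277, 424 and 377 CPM.

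Of the muscle genes described, the interaction was -1.22 for Mb, -1.07 for Npr3, -1.11 for Xirp2 (near the threshold, adjusted p = 0.045), -0.97 for Synpo2l, -0.91 for Tnni3, -0.84 for Trdn, -0.61 for Sln, -0.41 for Atp2a2, -0.39 for Ankrd1 and -0.33 for Cryab. It was positive for Fhl2 (0.31), Itgb5 (0.22) and Pvalb (1.27), and -0.25 for Ckap4.

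Of the matrix and cell marker genes it was 0.21 for Bgn, 0.52 for Col18a1, 0.31 for Col3a1, 0.42 for Lama4, 0.55 for Lum, 0.49 for Mfap4, 0.18 for Sparc, 0.69 for Timp1, 0.43 for Tcf21, 0.72 for Msln and 0.82 for Lrrn4. It was negative for Ctgf (-0.33) and Eln (-0.59).

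Of the metabolic and stress genes it was 0.34 for Hmgcs1, 0.54 for Idi1, 0.46 for Insig1, 0.40 for Sqle, 0.69 for Ddit4, 1.46 for Slc30a2, -0.41 for Hspd1, 0.43 for Inf2, -0.28 for Slc7a1, -0.41 for Adm, -0.42 for Btg2 and -2.92 for Cyp1a1. The interaction of Cyp1a1 was near the threshold (adjusted p = 0.0489) and rests on few counts, with 0.216 ± 0.0276 CPM in shNT and 0.615 ± 0.684 CPM in shMtfr1l. Its change in double knockdown against shMtfr1l was not called (adjusted p = 0.073). For the inflammatory genes it was 3.81 for Saa3, 0.60 for C1s and 0.45 for C1ra. For Mtfr1l itself it was 0.78, with the gene lower in shMtfr1l than in the double knockdown.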

How the results depend on the processing

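Over all genes tested, counts of called genes and of interactions stayed within 1.5 times of the reported ones under every alternative run. Leaving out each library in turn gave 1675 to 1766 higher and 1808 to 1988 lower genes, and 356 to 539 interactions. With a replicate block they were 1940 higher and 2063 lower genes and 411 interactions. The block ended no call of a named gene but those of C1qa, Fam73b, P4ha3 and Tnni3. DESeq2 called 2058 higher and 2261 lower genes and 653 interactions. Of the 4164 called genes, 2627 (63.1%) were called with the same sign in all 16 alternative fits, and none was called with the opposite sign in any. Of 252 named genes that were followed through the alternatives, 234 kept their side of the threshold in every one. Of 1632 list counts compared over the alternatives, 116 moved by more than 1.5 times. No scaling moved the median over all genes by more than 0.1 on the log2 scale. The fit without robust estimation and that of 6 libraries with a block were chosen after seeing the data. With 3 libraries a group, an exact permutation test of 1 gene cannot go below p = 0.1. Low counts limit genes such as Slc35f1, Cyp1a1 and Fgf21.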

Other observations

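The genes in this section were chosen after their values were seen, and their values are given with no explanation. Nolc1, a nucleolar phosphoprotein, had 90.8, 90.0 and 94.4 CPM in the shOpa1 libraries, against 55.5, 58.2 and 51.9 CPM in the shNT libraries. The groups did not overlap (log2 fold change 0.73 ± 0.075, SE; adjusted p = 5.04e-10). Nop56 (49.5 ± 7.97 CPM in shOpa1 and 34.2 ± 1.47 CPM in shNT; adjusted p = 0.000108), Nop58 (86.0 ± 2.53 CPM in shOpa1 and 62.4 ± 6.67 CPM in shNT; adjusted p = 1.47e-05), both of the box C/D particle, and the pseudouridine synthase gene Dkc1 (32.0 ± 5.29 CPM in shOpa1 and 21.1 ± 0.654 CPM in shNT; adjusted p = 0.000275) were higher too, while nucleolin (Ncl; adjusted p = 0.378) and fibrillarin (Fbl; adjusted p = 0.909) were not called. No list of nucleolar genes was counted.

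Of the secreted semaphorins beside Sema3a and Sema3d, Sema3c rose 1.60-fold (84.8 ± 0.744 CPM in shOpa1 and 52.9 ± 1.60 CPM in shNT; adjusted p = 9.82e-09), and Sema3e was not called (adjusted p = 0.518). Of their receptor genes Nrp2 fell 1.47-fold (adjusted p = 2.30e-10) and Plxna1 rose 1.48-fold (adjusted p = 2.64e-11). The iron exporter gene Slc40a1 fell 1.67-fold (14.02 ± 1.73 CPM in shOpa1 and 23.4 ± 2.91 CPM in shNT; adjusted p = 4.88e-05) and the mitochondrial transporter gene Abcb10 1.87-fold (adjusted p = 3.12e-08), while the metal importer gene Slc39a14 rose 1.33-fold (61.3 ± 1.88 CPM in shOpa1 and 46.1 ± 1.60 CPM in shNT; adjusted p = 0.000191) and the ferritin gene Fth1 was not called (adjusted p = 0.229, but 0.0369 without robust estimation and 0.0499 with the 6 libraries alone and a block). Heph, the relative of Hephl1, was not called (adjusted p = 0.107). Beside Cyp1a1, the aryl hydrocarbon receptor gene Ahr (adjusted p = 0.89) and its target Tiparp (adjusted p = 0.876) were not called.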
